A study of Homo sapiens with 4 samples.

Results

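The sgRNAs against 9 genes of the mevalonate pathway, from acetoacetyl-CoA to squalene and geranylgeranyl diphosphate, were followed in a pooled knockout screen with oxaliplatin. The members were taken by gene symbol from the deposited count table: ACAT2, HMGCS1, MVK, PMVK, MVD, IDI1, FDPS, GGPS1 and FDFT1, with 4 sgRNAs each, which makes 36 of 7142 sgRNAs and 9 of 1773 genes. All 9 symbols matched the RefSeq gene table. HCT116, an established human colon carcinoma line, was transduced with a Cas9 sgRNA library of metabolic enzymes and selected with puromycin, and by the labels these cells were then divided and kept for 7 days with PBS or with 10 µM oxaliplatin, a platinum compound used against colorectal cancer that forms DNA crosslinks. There was 1 library from PBS-treated cells and 3 from oxaliplatin-treated cells, all from 1 cell line. Beyond that division and a general remark that experiments were repeated independently, no source says how the oxaliplatin libraries relate to each other as cultures, so the p-values speak of the spread among these libraries, part of which may be technical. Neither the sgRNA sequences nor their cut sites were analysed here.

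The mevalonate pathway turns acetyl-CoA into isoprenoid units and joins these into longer chains. Farnesyl diphosphate stands at its branch point, from which cells make squalene and cholesterol, geranylgeranyl diphosphate, dolichol and the side chain of coenzyme Q, and both diphosphates serve to anchor proteins in membranes. Most dividing cells need the pathway, although cholesterol can also be taken up from serum. In such a screen, an sgRNA takes more of the counts the more of the surviving cells carry it. The step from HMG-CoA to mevalonate is not among the 9 genes and was not analysed here.

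Total counts were 8934799 in the PBS library and 27563013, 10494731 and 11146921 in oxaliplatin replicates 1, 2 and 3. The 36 sgRNAs make up 0.504% of all sgRNAs, and they held 0.415% of the counts with PBS and 0.312%, 0.537% and 0.515% with oxaliplatin. Without 1 sgRNA of ACAT2, the share in replicate 1 was 0.17%. 13 of the 36 had under 10 counts with PBS, in fact 4 or fewer, and the other 23 had at least 100, with none between. These 13 are called scarce here, and the 23 counted. Under 10 counts with PBS were found for 36.1% of the 36 (95% exact Clopper-Pearson interval 20.8 to 53.8) and for 2142 of all 7142 sgRNAs, and 5 of the 36 were at 0 with PBS (13.9%, 4.67 to 29.5), against 19.0% of all. How the PBS library came to hold so few counts of these sgRNAs was not tested, and every fold change below is relative to this 1 library. A count of 0 allows up to 3 counts, or 3.36e-05% of the PBS library. With oxaliplatin, 1 of the 36 was at 0 in replicate 1, where 2.3% of all sgRNAs were, and none in replicates 2 and 3. Such intervals and floors cover counting error only, because reads amplified by PCR and carrying no molecular identifier do not each stand for 1 molecule.

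**Figure D1:**
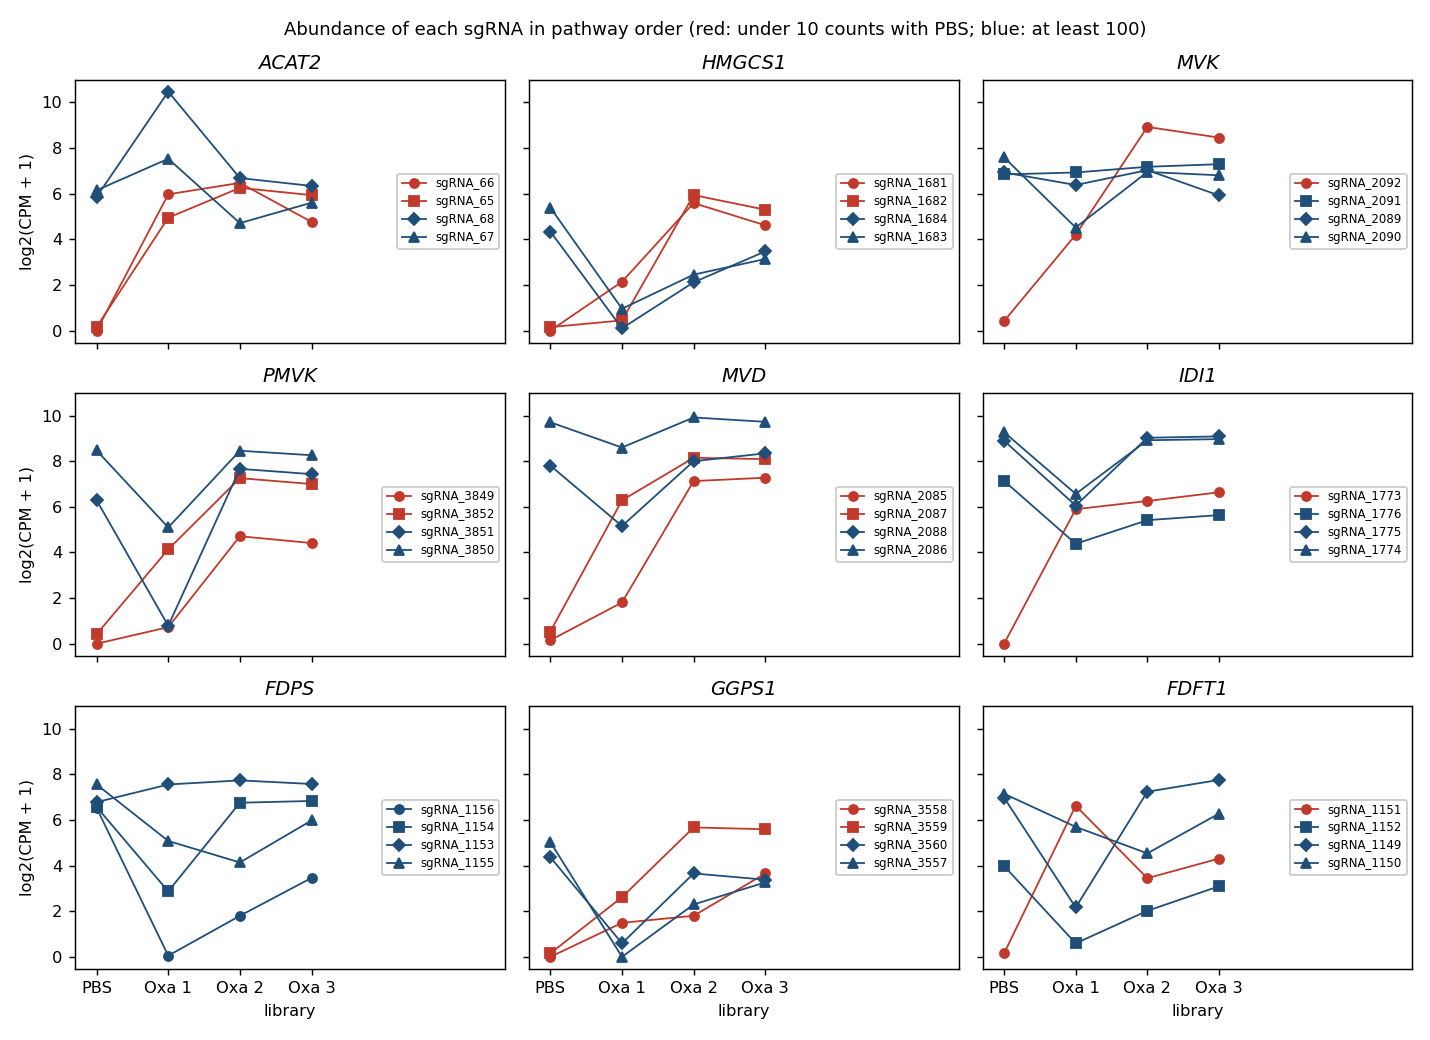
Abundance of each sgRNA as log2(CPM + 1), with CPM the counts scaled to a common library total (y axis), in the PBS library and oxaliplatin replicates 1 to 3 (x axis), 1 panel per gene in pathway order and 1 symbol per sgRNA. The 13 red sgRNAs lie near 0 with PBS and higher in every oxaliplatin library, and the 23 blue sgRNAs lie on both sides of their PBS level, with 1 of GGPS1 at 0 in replicate 1.

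Single sgRNAs were higher or lower within the same gene. All 13 scarce sgRNAs were higher with oxaliplatin, while the 23 counted sgRNAs went both ways. edgeR's quasi-likelihood test, with Benjamini-Hochberg adjustment over 7111 sgRNAs, called 5 of the 36 higher with oxaliplatin (13.9%), where 8.35% of all sgRNAs tested were called higher. These were 2 of ACAT2 and 1 each of PMVK, MVD and IDI1, and all 5 had 4 or fewer counts with PBS. The 13 scarce sgRNAs passed the filter, at least 10 counts in at least 1 library, only through the oxaliplatin libraries, where they had to be higher, so that their calls are given as a description. This also holds for their calls with an oxaliplatin replicate left out, because those fits keep the same PBS library. The same fit called 0 lower (0 of the 36 at an unadjusted p under 0.05), with 0.0% of all sgRNAs called lower. With RLE scaling the same 5 were called higher (7.16% of all) and 0 lower, with 1 of the 36 lower at an unadjusted p under 0.05. DESeq2 called 14 higher, the 13 scarce sgRNAs and sgRNA_68 of ACAT2, and 1 lower, against 28.5% and 0.408% of all sgRNAs. Without oxaliplatin replicate 1, edgeR called 15 of the 36 higher (41.7%) and 6 lower (16.7%), close to the 38.2% and 15.5% of all sgRNAs. Without replicate 2 or replicate 3 it called 5 higher in each case, of which 3 were among the first 5, against 8.61% and 4.89% of all, and 0 lower, against 0.0% and 0.0142%. The 5 calls were lost with total-count scaling (edgeR adjusted p from 0.12 to 0.148), where no sgRNA of the library was called. They were also lost with a minimum of 3 counts with PBS, which removes 3 of the 5 from the test (edgeR adjusted p from 0.115 to 0.145 for the remaining pair). Each of the 13 scarce sgRNAs was higher in 3 of 3 oxaliplatin libraries, as were 93.9% of all sgRNAs with under 10 counts with PBS, and an sgRNA near 0 has little room to go lower. All p-values without replicate 1, here and below, rest on the spread between replicates 2 and 3 alone. In that fit edgeR's estimate of the spread, the common dispersion, was 0.111, against 0.795 with all libraries.

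The first pair of enzymes makes HMG-CoA. ACAT2, the cytosolic acetoacetyl-CoA thiolase, had the highest median of the 9 genes, and its sgRNAs were above the PBS level in every oxaliplatin library except for 1 sgRNA in replicates 2 and 3. Its sgRNA_66 had 0 counts with PBS and 1706, 923 and 292 in oxaliplatin replicates 1, 2 and 3, which is at least 343-, 247- and 68.7-fold higher against a floor of 3 counts per library (edgeR adjusted p = 0.0468). Its sgRNA_65 had 1 count with PBS and 825, 792 and 672 with oxaliplatin, ratios of 498 (95% counting interval 89.2 to 19700), 635 (114 to 25100) and 474 (84.9 to 18800) after scaling (edgeR adjusted p = 0.0414). Both were called higher, and sgRNA_66 was also called without each oxaliplatin replicate in turn, whereas sgRNA_65 was not called without replicate 2 or without replicate 3. The other two were well counted with PBS. For sgRNA_68 the counts were 510 with PBS and 39060, 1066 and 893 with oxaliplatin, log2 fold changes of 5.53, 0.74 and 0.31. For sgRNA_67 they were 625 and 5065, 264 and 532, or 2.29, -1.56 and -0.73 on the log2 scale. Replicate 1 alone held both of these far above PBS, and sgRNA_68 was the 122nd most abundant of all sgRNAs there, against 2792nd and 3547th in replicates 2 and 3. Neither was called (edgeR adjusted p = 0.474 and 0.631).

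HMGCS1, the cytosolic HMG-CoA synthase, split evenly between scarce sgRNAs that were higher and counted sgRNAs that were lower with oxaliplatin. Its sgRNA_1681 had 0 counts with PBS and 94, 495 and 262 with oxaliplatin, at least 18.9-, 132- and 61.7-fold higher against the floor. Its sgRNA_1682 had 1 and 10, 634 and 428, ratios of 6.04 (0.859 to 262), 508 (90.8 to 20100) and 302 (53.9 to 12000). In replicate 1 the interval of the latter includes no difference. On the other side, sgRNA_1684 had 172 counts with PBS and 2, 35 and 113 with oxaliplatin, log2 fold changes of -6.46, -2.58 and -1.10. The fourth, sgRNA_1683, had 366 and 26, 47 and 87, or -4.48, -3.25 and -2.56. Of all sgRNAs with at least 100 counts with PBS, 52.5% were lower in all 3 oxaliplatin libraries by median ratios. The share was 37.3% with TMM and 55.2% with total counts. Both counted sgRNAs were lower in 3 of 3 libraries under each of the 3 scalings tried, yet neither passed with all libraries (edgeR adjusted p = 0.607 and 0.230), and sgRNA_1683 fell by the test only without oxaliplatin replicate 1 (edgeR adjusted p = 0.00307).

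The middle enzymes carry mevalonate to isopentenyl diphosphate. For MVK, the mevalonate kinase, 3 well-counted sgRNAs lay on both sides of the PBS level and 1 scarce sgRNA was far above it. The scarce one, sgRNA_2092, had 3 counts with PBS and 479, 5098 and 3917 with oxaliplatin, ratios of 96.4 (32.8 to 469), 1360 (466 to 6600) and 922 (315 to 4470). It just missed the threshold (edgeR adjusted p = 0.0503) and passed without any 1 of the oxaliplatin replicates, while it held 55.0% and 51.8% of the counts of MVK in replicates 2 and 3 against 0.0788% with PBS. For sgRNA_2091 the counts were 1015 with PBS and 3345, 1512 and 1744 with oxaliplatin (log2 fold changes of 0.99, 0.26 and 0.28). For sgRNA_2089 they were 1079 and 2271, 1361 and 665 (0.35, 0.02 and -1.20). For sgRNA_2090 they were 1712 and 604, 1290 and 1240 (-2.23, -0.73 and -0.97). Of these 3 sgRNAs of 1 gene, 1 was higher and 1 lower in every oxaliplatin library with median-ratio scaling. None was called (edgeR adjusted p from 0.566 to 0.801).

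PMVK, the phosphomevalonate kinase, held the sgRNA with the widest gap between oxaliplatin replicate 1 and the other two. Its sgRNA_3849 had 0 counts with PBS and 18, 264 and 226 with oxaliplatin, at least 3.62-, 70.5- and 53.2-fold higher. Its sgRNA_3852 had 3 and 457, 1594 and 1415, ratios of 92.0 (31.3 to 448), 426 (145 to 2070) and 333 (114 to 1620). The latter was called higher (edgeR adjusted p = 0.0431), a call that was lost without replicate 2 or replicate 3. The well-counted sgRNA_3851 went from 691 counts with PBS to 20 in replicate 1 but to 2118 and 1916 in replicates 2 and 3, log2 fold changes of -5.75, 1.30 and 0.97. The most abundant sgRNA of the gene, sgRNA_3850, had 3161 and 915, 3686 and 3416 (-2.51, -0.10 and -0.39). In replicates 2 and 3 sgRNA_3851 was thus above PBS, and it was called higher without replicate 1 (edgeR adjusted p = 0.00317) but not with all libraries (edgeR adjusted p = 0.818).

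MVD, the mevalonate diphosphate decarboxylase that releases isopentenyl diphosphate, had 1 of the most abundant sgRNAs of the library and the lowest adjusted p of the 36, which an sgRNA of ACAT2 and 1 of IDI1 shared. Its sgRNA_2087 had 4 counts with PBS and 2122, 2972 and 3037 with oxaliplatin, log2 fold changes of 8.07, 8.93 and 8.79 (edgeR adjusted p = 0.0414). Its sgRNA_2085 had 1 and 69, 1459 and 1714, ratios of 41.7 (7.23 to 1670), 1170 (209 to 46200) and 1210 (217 to 47800), and was not called (edgeR adjusted p = 0.0756). In CPM, sgRNA_2087 stood at 0.448 with PBS and at 77.0, 283 and 272 with oxaliplatin, lowest of the 3 in replicate 1. The abundant sgRNA_2086 had 7457 counts with PBS and 10663, 10141 and 9427 with oxaliplatin, log2 fold changes of -0.21, 0.12 and -0.16, and ranked 96th with PBS and 563rd, 60th and 65th with oxaliplatin. The remaining sgRNA_2088 had 1992 and 956, 2671 and 3615 (-1.79, 0.10 and 0.36). With median-ratio scaling sgRNA_2086 was thus within 0.21 of PBS on the log2 scale in every oxaliplatin library. In CPM it stood at 835 with PBS and at 387, 966 and 846 with oxaliplatin. With TMM scaling it was higher in all 3 oxaliplatin libraries, so that this closeness depends on the scaling.

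IDI1 is the isomerase that turns isopentenyl diphosphate into dimethylallyl diphosphate, the primer of chain growth. For its 2 most abundant sgRNAs replicate 1 lay farthest below PBS, and a less abundant one was lower in all 3 oxaliplatin libraries by a similar amount. The scarce sgRNA_1773 had 0 counts with PBS and 1614, 791 and 1099 with oxaliplatin, at least 325-, 211- and 259-fold higher, and it was called higher (edgeR adjusted p = 0.0414). It was called without each oxaliplatin replicate in turn, as was sgRNA_2087 of MVD. The sgRNA_1776 had 1255 counts with PBS and 545, 438 and 544 with oxaliplatin, log2 fold changes of -1.93, -1.84 and -1.71. With median-ratio scaling its spread over the libraries, an SD of 0.11 around a mean of -1.82 (n = 3), was the smallest of the 36 sgRNAs, and it was lower in 3 of 3 under each scaling, with 140 CPM with PBS and 19.8, 41.7 and 48.8 CPM with oxaliplatin, but it passed the test only without replicate 1 (edgeR adjusted p = 0.0124, against 0.515 with all libraries). For sgRNA_1775 the counts were 4256 and 1805, 5463 and 6049 (-1.96, 0.04 and 0.00). For sgRNA_1774 they were 5515 and 2585, 5068 and 5571 (-1.82, -0.44 and -0.49). Like sgRNA_1776 and sgRNA_1774, 52.5% of all sgRNAs with at least 100 counts with PBS were lower in all 3 by median ratios.

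The next enzymes build the prenyl chains. FDPS, the farnesyl diphosphate synthase, was the only 1 of the 9 genes with no scarce sgRNA in the PBS library and had the lowest median. Its sgRNA_1156 had 815 counts with PBS and 1, 26 and 112 with oxaliplatin, log2 fold changes of -9.23, -5.23 and -3.35, which is the lowest mean of the 36 (-5.94 ± 3.00, SD, n = 3). Its sgRNA_1155 had 1667 and 903, 174 and 691 (-1.61, -3.57 and -1.77). Both were lower in 3 of 3 libraries under each scaling, with an edgeR adjusted p of 0.184 and 0.547, and both fell by the test without replicate 1 (edgeR adjusted p = 3.33e-08 and 6.13e-05). DESeq2 called sgRNA_1156 lower with all libraries (adjusted p = 0.049). Of all sgRNAs with at least 100 counts with PBS, 52.5% were lower in all 3 by median ratios and 37.3% with TMM. The share of all sgRNAs called lower without replicate 1 is given above. The remaining sgRNAs of FDPS did not share this direction. For sgRNA_1153 the counts were 974 and 5144, 2222 and 2121 (1.67, 0.87 and 0.62), and for sgRNA_1154 they were 839 and 174, 1126 and 1255 (-2.99, 0.10 and 0.08). Thus the 4 sgRNAs of FDPS, which had between 815 and 1667 counts in the PBS library, ranged from -5.94 to 1.05 in mean log2 fold change. Of these, sgRNA_1153 was called higher without replicate 1 (edgeR adjusted p = 0.0254).

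GGPS1, the geranylgeranyl diphosphate synthase, had few counts throughout. Its sgRNA_3558 had 0 counts with PBS and 50, 26 and 129 with oxaliplatin, at least 10.1-, 6.94- and 30.4-fold higher. Its sgRNA_3559 had 1 and 141, 525 and 527, ratios of 85.1 (15.0 to 3390), 421 (75.2 to 16600) and 372 (66.5 to 14700). Neither was called (edgeR adjusted p = 0.122 and 0.0581). The counted pair lay lower: sgRNA_3557 had 284 counts with PBS and 0, 41 and 96 with oxaliplatin, at least 157-fold lower in replicate 1, where the floor is 1.09e-05% of the library, and at log2 fold changes of -3.08 and -2.05 in replicates 2 and 3. Its partner sgRNA_3560 had 175 and 14, 122 and 105 (-4.25, -0.83 and -1.23). Both were lower in all 3 oxaliplatin libraries, as were 52.5% of all sgRNAs with at least 100 counts with PBS. Of all sgRNAs under 10 counts with PBS, 93.9% were higher in all 3. GGPS1 thus repeated the split of HMGCS1, and sgRNA_3557 fell by the test only without replicate 1 (edgeR adjusted p = 0.0218, against 0.502 with all libraries).

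FDFT1, the squalene synthase, commits farnesyl diphosphate to sterols. Its scarce sgRNA_1151 had 1 count with PBS and 2689, 104 and 210 with oxaliplatin, ratios of 1620 (291 to 64200), 83.3 (14.6 to 3320) and 148 (26.3 to 5880). It was the leading sgRNA of FDFT1 in replicate 1, held 5.36% and 5.92% of the counts of the gene in replicates 2 and 3, and was not called with all libraries (edgeR adjusted p = 0.122), although it was without any 1 of the oxaliplatin replicates. Of the other three, sgRNA_1152 had 132 counts with PBS and 14, 32 and 84 with oxaliplatin (log2 fold changes of -3.85, -2.32 and -1.14). For sgRNA_1149 the counts were 1116 and 96, 1571 and 2397 (-4.25, 0.17 and 0.60). For sgRNA_1150 they were 1257 and 1403, 233 and 855 (-0.57, -2.75 and -1.06). The first of these was lower in 3 of 3 under each scaling. With median-ratio and total-count scaling, but not with TMM, sgRNA_1150 was also lower in 3 of 3, lowest in replicate 2. As given above, 52.5% of all sgRNAs with at least 100 counts with PBS were lower in all 3 by median ratios. Without replicate 1, edgeR's log2 fold change was -1.20 for sgRNA_1152 and -1.25 for sgRNA_1150. By contrast, sgRNA_1149 was low in replicate 1 alone.

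**Figure D2:**
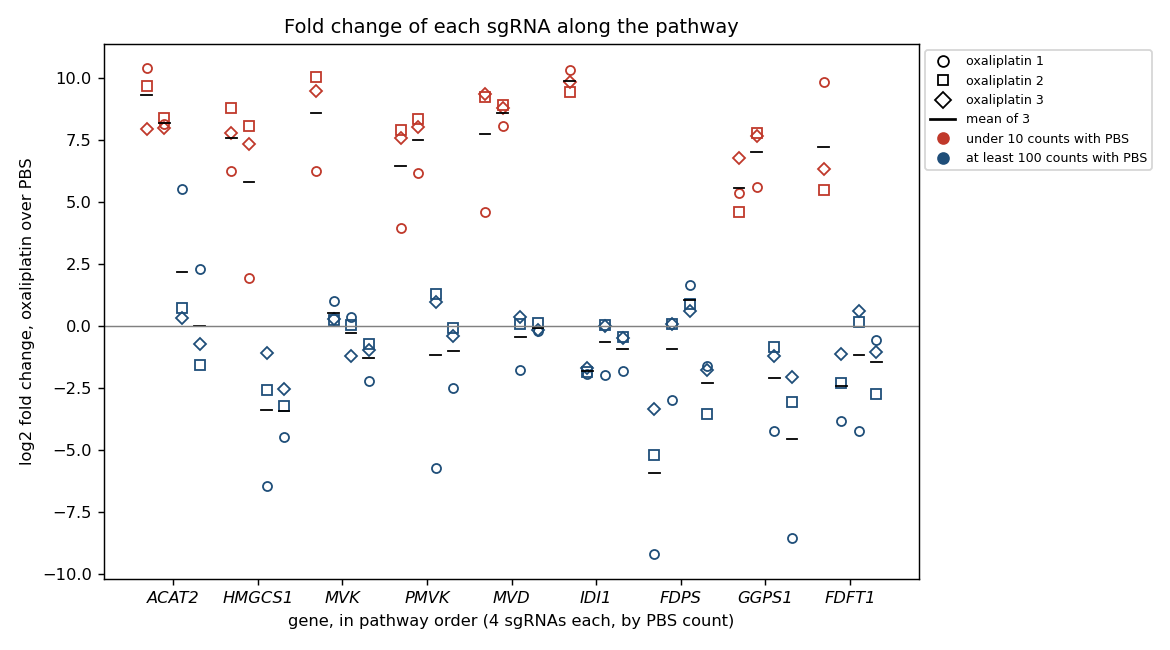
Log2 fold change of each sgRNA, oxaliplatin over PBS after median-ratio scaling with a pseudocount of 1 (y axis), for the 9 genes in pathway order with their 4 sgRNAs sorted by PBS count (x axis). Symbols are the 3 oxaliplatin libraries and bars their mean. The means of the 13 scarce sgRNAs (red) lie between 5.58 and 9.89, and those of the 23 counted sgRNAs (blue) between -5.94 and 2.19.

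Summarised per gene, the median over 4 sgRNAs of the mean log2 fold change was 5.19 for ACAT2, 3.83 for MVD, 2.74 for PMVK, 1.74 for GGPS1, 1.21 for HMGCS1, 0.11 for MVK, -0.78 for IDI1, -1.31 for FDFT1 and -1.63 for FDPS, where the median over all genes was 0.12. This last value was 0.72 with TMM scaling and -0.08 with total counts. Of the members, MVK alone changed sign among these scalings, being -0.09 with total counts. Across the 3 libraries the medians were 6.84, 4.57 and 4.13 for ACAT2 (SD 1.46), -1.26, 2.75 and 3.13 for HMGCS1 (SD 2.43), 0.71, 4.60 and 4.27 for PMVK (SD 2.15) and -2.30, -1.73 and -0.85 for FDPS (SD 0.73). The values of genes with scarce sgRNAs also depend on the pseudocount, and with 50 in place of 1 they were 2.95 for ACAT2, 1.73 for MVD, 0.58 for PMVK and -0.11 for GGPS1, the last with its sign turned. No neighbours in the first order differed by more than the larger of their SDs. The 3 libraries were set against the same PBS library, so that its counting error is common to them. The order followed the number of scarce sgRNAs, which is partly built in, since the same PBS counts are the denominator of the fold changes: the 5 genes with 2 sgRNAs under 10 counts with PBS lay between 1.21 and 5.19, the 3 genes with 1 between -1.31 and 0.11, and FDPS with none at -1.63. Over all genes, the median of such values was 2.91 for 461 genes with 2 scarce sgRNAs, -0.34 for 683 genes with 1 and -0.88 for 458 genes with none.

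With only the sgRNAs of at least 100 counts with PBS, 8 of the 9 genes were below 0. Their medians were 1.10 for ACAT2, -3.40 for HMGCS1, -0.28 for MVK, -1.08 for PMVK, -0.26 for MVD, -0.92 for IDI1, -1.63 for FDPS, -3.33 for GGPS1 and -1.46 for FDFT1, and MVK and MVD were above 0 with TMM scaling, at 0.33 and 0.35. The median of these 23 sgRNAs was -1.16, against -0.96 for 4859 sgRNAs of the library with as many counts. 12 of the 23 were lower in all 3 oxaliplatin libraries, where 52.5% of all such sgRNAs were, and 3 were higher in all 3, where 11.7% were. With TMM scaling the 12 became 10, against 37.3% of all. Among these sgRNAs, edgeR called 0 of the 23 when sgRNAs of at least 100 counts were tested without the others (0 at an unadjusted p under 0.05), with 0.0% of all called in either direction.

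HMGCS1 and GGPS1 stood at the low end of the library in every sample. Summed over the 4 sgRNAs, HMGCS1 had 60.3 CPM with PBS and 4.79, 115 and 79.8 CPM with oxaliplatin, and GGPS1 had 51.5 and 7.44, 68.0 and 76.9 CPM. The median of all genes was 454 CPM with PBS and 240, 427 and 454 with oxaliplatin. Of all 1773 genes, 4.40% lay below HMGCS1 with PBS and 0.733%, 10.2% and 2.88% with oxaliplatin, and 3.33% below GGPS1 with PBS and 1.35%, 4.17% and 2.37% with oxaliplatin. Both genes were therefore low in summed counts with and without the drug. With no library from before the treatment, fewer copies at the start and loss during culture cannot be told apart. At the other end, MVD had 1060 CPM with PBS and 501, 1640 and 1600 with oxaliplatin, and IDI1 had 1230 and 238, 1120 and 1190, so that 88.2% and 92.2% of genes lay below them with PBS. MVK and PMVK, at 426 and 431 CPM, and FDPS, at 481 CPM, were near the median of the PBS library. ACAT2 had 127 CPM with PBS and 1690, 290 and 214 with oxaliplatin, with 83.7% of the counts in replicate 1 from sgRNA_68.

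**Figure D3:**
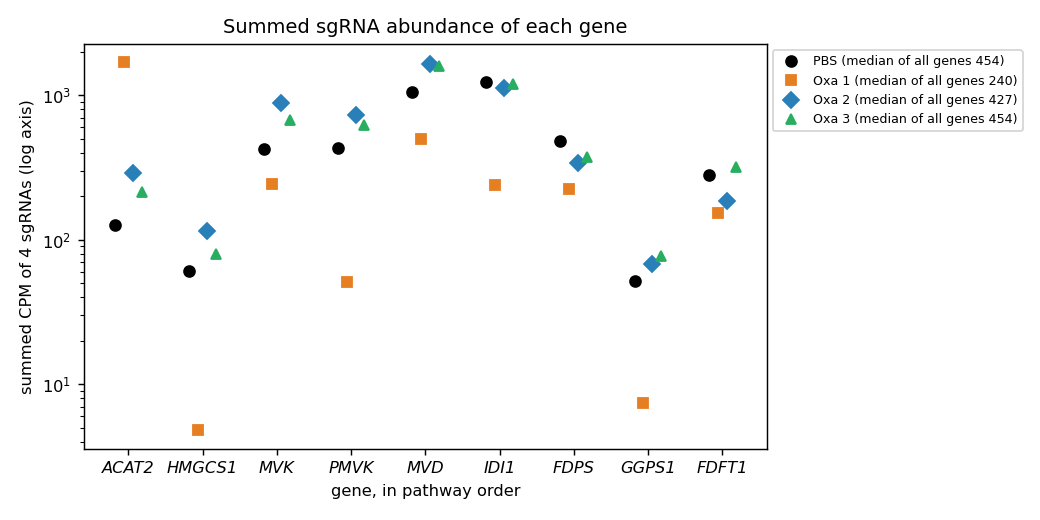
Summed abundance of the 4 sgRNAs of each gene in CPM (y axis, log scale) for the 9 genes in pathway order (x axis), with 1 symbol per library and the median over all genes in the key. HMGCS1 and GGPS1 lie lowest with PBS, at 60.3 and 51.5 CPM, and in replicate 1, at 4.79 and 7.44.

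On these summed counts, edgeR called 0 of the 9 genes with all libraries (0 at an unadjusted p under 0.05), and 0.0% of the 1823 entries in either direction. DESeq2 also called 0 of the 9 (1, ACAT2, at an unadjusted p under 0.05), where it called 6.75% of all entries higher and 2.03% lower. The largest fitted log2 fold change was that of ACAT2, 3.30 (edgeR adjusted p = 0.776), and the others lay between -0.37 and 0.72. Without oxaliplatin replicate 1, edgeR called 4 of the 9 higher, where 22.9% of all entries were called higher, and none lower, where 18.2% were. These were ACAT2 (log2 fold change 1.06, edgeR adjusted p = 0.0197), MVK (0.95, edgeR adjusted p = 0.00277), PMVK (0.72, edgeR adjusted p = 0.0224) and MVD (0.68, edgeR adjusted p = 0.0477), all of them upstream of IDI1 in the pathway. Without replicate 2 or replicate 3 it called 0 of the 9 (1 and 0 at an unadjusted p under 0.05), where 0.439% and 0.0% of all entries were called higher. In the fit without replicate 1, IDI1, FDPS and FDFT1 were at -0.03, -0.37 and -0.10, and HMGCS1 and GGPS1 at 0.77 and 0.56 (edgeR adjusted p from 0.221 to 0.939 over these 5). HMGCS1 is also upstream of IDI1 and was not called. The difference between upstream and downstream genes was not tested. Like all members but FDPS, the 4 called genes have scarce sgRNAs, which held more of the summed counts with oxaliplatin. In replicates 2 and 3, sgRNA_2092 held 55.0% and 51.8% of MVK. For ACAT2, sgRNA_66 held 30.3% and 12.2%, and sgRNA_65 26.0% and 28.1%. The scarce sgRNA_3852 held 20.8% and 20.3% of PMVK, and sgRNA_2087 17.2% and 17.1% of MVD. Without replicate 1, edgeR's log2 fold changes of the counted sgRNAs were 1.00 and -0.66 for ACAT2 and 0.72, 0.01 and -0.39 for MVK. They were 1.60 and 0.22 for PMVK and 0.68 and 0.44 for MVD. Like the calls of scarce sgRNAs, the gene calls are therefore given as a description. How far they rest on scarce sgRNAs was not tested. Each of these fits sets the oxaliplatin libraries against 1 PBS library, which is assumed to vary as they do, and an exact permutation test of 3 libraries against 1 cannot give a p below 0.25.

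The sgRNA that dominated a gene often differed between libraries. MVD and PMVK kept the same leading sgRNA in all 4 libraries, sgRNA_2086 with 78.9% of the counts with PBS and 77.2%, 58.8% and 53.0% with oxaliplatin, and sgRNA_3850 with 82.0% and 64.9%, 48.1% and 49.0%. In IDI1 sgRNA_1774 led with PBS and in replicate 1, and sgRNA_1775 in replicates 2 and 3. In the other 6 genes the leading sgRNA of each oxaliplatin library was another than with PBS. For FDPS, sgRNA_1153 had 22.7% with PBS and 82.7%, 62.6% and 50.8% with oxaliplatin. For HMGCS1 and GGPS1 the scarce sgRNAs took the lead, sgRNA_1682 with 0.186% of HMGCS1 with PBS and 52.4% and 48.1% in replicates 2 and 3, and sgRNA_3559 with 0.217% of GGPS1 with PBS and 68.8%, 73.5% and 61.5% with oxaliplatin.

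**Figure D4:**
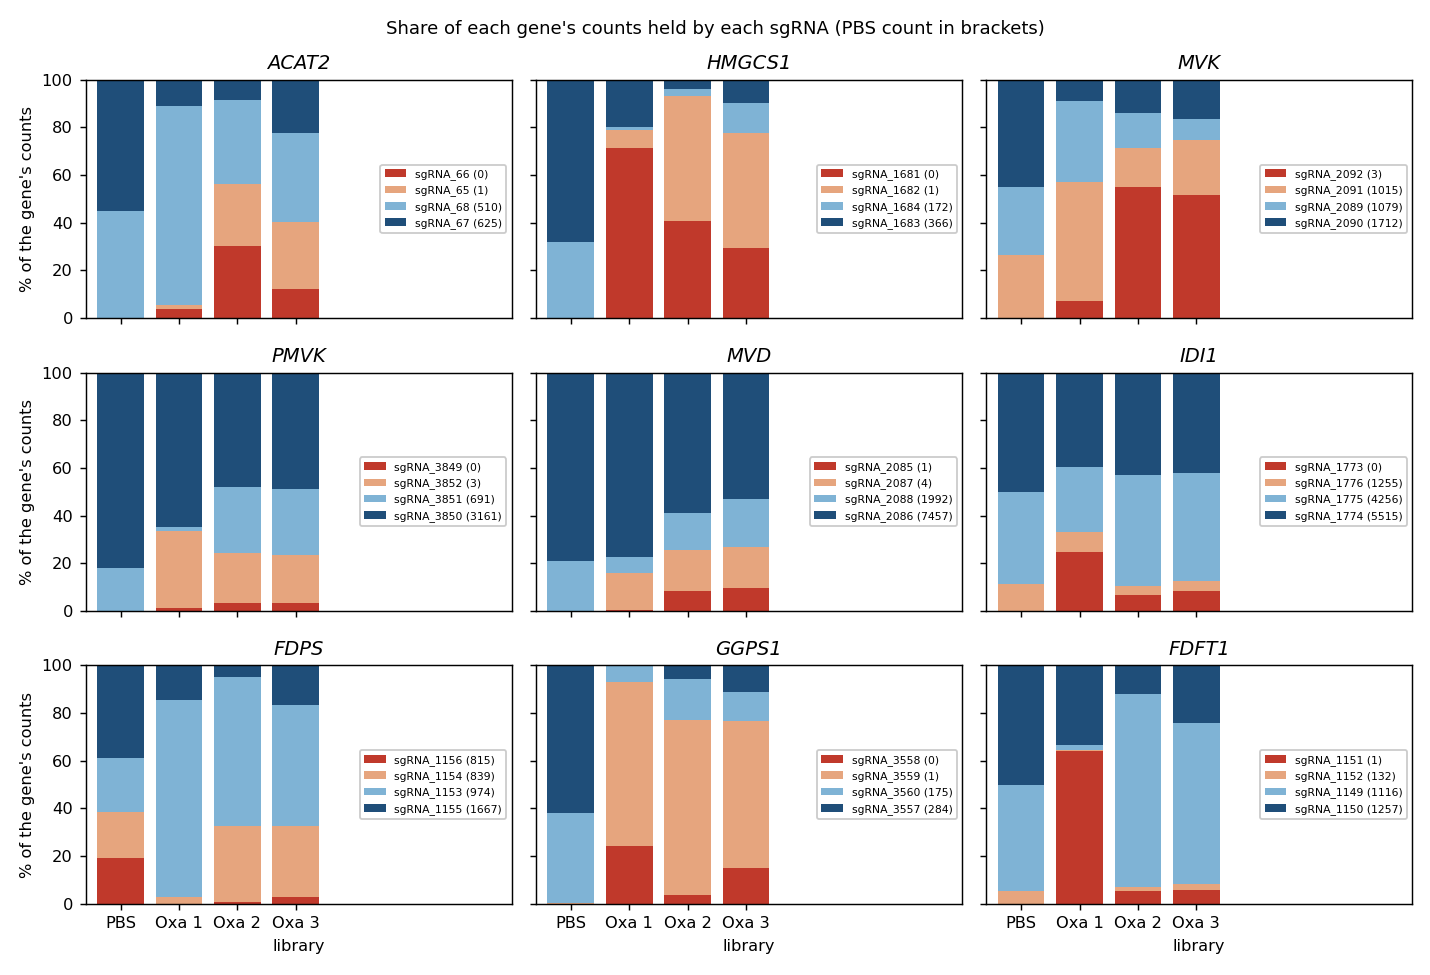
Share of the counts of each gene held by each of its 4 sgRNAs in percent (y axis) in the PBS library and oxaliplatin replicates 1 to 3 (x axis), with the PBS count of each sgRNA in brackets. The sgRNAs with 4 or fewer counts with PBS are not visible in the PBS bars, and sgRNA_3559 of GGPS1 reaches 73.5% in replicate 2.

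Oxaliplatin replicate 1 stood apart for this pathway as for the library. For 16 of the 36 sgRNAs its log2 fold change was more than 2 below the mean of replicates 2 and 3 (44.4%, against 33.5% of all sgRNAs), and for 3 it was more than 2 above (8.33%, against 926 of all 7142). The 3 were sgRNA_68 and sgRNA_67 of ACAT2, at 5.01 and 3.44 above, and sgRNA_1151 of FDFT1, at 3.95 above. The largest gap below was that of sgRNA_3851 of PMVK, at -6.88. Replicates 2 and 3 were within 1 of each other on the log2 scale for 26 of the 36 (72.2%, against 82.8%). Over the 36 sgRNAs, Pearson's r of log2(CPM + 1) was 0.94 between replicates 2 and 3, 0.57 and 0.59 between replicate 1 and these, and 0.29, 0.23 and 0.38 between PBS and replicates 1, 2 and 3, against 0.96, 0.63 and 0.65, and 0.39, 0.53 and 0.55 over all 7142, where sgRNAs of 1 library share its depth and are not independent replicates.

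Genes that take up the products of the pathway were described by the same values. Of 14 listed genes that use farnesyl or geranylgeranyl diphosphate, or products made from them, 5 are in the library. These are DHDDS of dolichol synthesis, PDSS1, PDSS2 and COQ2 of coenzyme Q synthesis and COX10 of heme A synthesis. They had 2 of 20 sgRNAs called higher and 0 lower by edgeR, where 8.35% and 0.0% of all were, and 13 and 3 without replicate 1, where 38.2% and 15.5% of all were, with a median log2 fold change of 4.00, against -0.18 for the 36 and -0.09 for all sgRNAs, from 1.49 for PDSS1 to 6.88 for COQ2, and 11 of the 20 (55.0%) were scarce with PBS. Of 44 sgRNAs against 11 genes from squalene to cholesterol, 5 were called higher and 0 lower, and 19 and 5 without replicate 1, beside the same shares of all sgRNAs, with a median of 0.89, from -1.83 for NSDHL, a sterol dehydrogenase, to 6.98 for CYP51A1, the lanosterol demethylase, and 18 (40.9%) were scarce. With at least 100 counts with PBS, the medians of the 2 lists were -1.67 (n = 9 sgRNAs) and -0.97 (n = 25), against -1.16 for the 23 of the pathway. The difference between these lists was not tested.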

How the data were processed

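Genomic DNA of surviving cells was amplified by 2-step PCR and sequenced, and the authors deposited counts of reads per sgRNA, 1 file per library and 1 table of the series. The values of the table and of the single files were equal for 100% of the sgRNAs. MAGeCK is named in the submitters' processing notes without a version or settings. Counts were used as deposited.

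Single sgRNAs with at least 10 counts in at least 1 library, and counts summed per entry, were tested by edgeR 4.0.16 (quasi-likelihood, TMM scaling, adjusted p under 0.05) in R 4.3.3, with DESeq2 1.42.0 as an alternative. For fold changes, each oxaliplatin library was scaled with the PBS library by median ratios as MAGeCK takes them, so that its counts were multiplied by 0.604, 0.801 and 0.706 relative to PBS, and log2((oxaliplatin + 1)/(PBS + 1)) was taken. Ratios at 1 to 3 PBS counts have exact conditional binomial intervals of 95%. Mean depth was 1251 counts per sgRNA with PBS and 3859, 1469 and 1561 with oxaliplatin. Python 3.11.15, numpy 2.4.6, pandas 2.3.3, scipy 1.17.1 and matplotlib 3.10.9 were used, and the steps were tested on simulated data. All 9 members were named, and of 2 further lists the lowest and highest gene, while 1 further list is not reported here. The members, lists and tests were chosen with earlier results of these data known. As alternatives, other scalings, pseudocounts (0.5, 10 or 50), PBS minimums (3, 30 or 100), summaries and tools were tried, and each oxaliplatin library was left out.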

Additional observations from a re-analysis of the deposited data

How the results depend on the processing

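The 5 sgRNAs called higher were 5 with RLE scaling or no filter, 0 with total-count scaling (11 of the 36 at an unadjusted p under 0.05 by edgeR), 0 of 26 with at least 3 counts with PBS, 0 of 23 with at least 100, and 14 with DESeq2, and 5 to 15 when 1 oxaliplatin replicate was left out. The fits with a PBS minimum test fewer sgRNAs, and for the other changes the cause was not tested. The 0 called lower became 1 with DESeq2 and 0 to 6 without 1 replicate, and the 0 genes called on summed counts 0 to 4. Of the genes with a median above 0, 6 of 9, 2 remained above 0 with at least 3 counts with PBS, 1 with at least 30 or 100, and 3 on summed counts, with 5 to 6 without 1 replicate and 5 with a pseudocount of 50. Here the sums were scaled by median ratios and their log2 fold changes averaged over libraries, giving -0.56 for HMGCS1, -0.38 for PMVK and -0.39 for GGPS1. With TMM scaling, the edgeR fit on sums put these at 0.24, 0.23 and 0.10, so their sign depends on the method. With the mean over sgRNAs in place of the median 8 of 9 were above 0, as IDI1 turned to 1.63 and FDFT1 to 0.54, while MVK was 1.88. FDPS was below 0 in all 15 settings. The median over the 36 sgRNAs, -0.18, was 0.43 with TMM, -0.39 with total counts, -0.97 with at least 3 counts with PBS, -1.16 with at least 30 and -1.16 with at least 100, and -0.31 to 0.25 without 1 replicate, so its sign is not settled. 5 sgRNAs were at 0 with PBS, 10 under 3 counts and 13 under 10. No paired analysis was possible because the PBS group has 1 library and shares no replicate number by its labels. Depth limits the 13 scarce sgRNAs most, whose ratios have wide intervals.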
